A study of Mus musculus with 8 samples.

Results

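Cell cycle genes were read here as a set of 40 transcripts in whole mouse liver, taken by gene name from a table of 25078 genes. Of these, 17 act in the G1/S transition and S phase, when DNA is copied, and 23 act in G2 and mitosis, when chromosomes are condensed, lined up and pulled apart. All 40 were in the table, and all 40 passed the filter on low counts that left 14438 genes for testing. The samples were livers of male C57/BL6 mice, all kept for 25 weeks on a high-fat-fructose-cholesterol diet. Wild-type mice gave 5 libraries. The other 3 came from mice whose genotype label reads Midn hemizygotes and whose titles read Het, and they are called het-labelled below. The submitters' design text describes a knockout in the whole animal whose homozygotes mostly died as embryos, and asks what midnolin, the product of Midn, does in fatty liver disease. The age of the mice is unknown here, and no group on a plain diet was analysed here.

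A resting adult liver holds few dividing cells, but hepatocytes, bile duct cells and immune cells can all re-enter the cycle after injury. Transcripts of the set come in waves. E2F factors switch on the S phase genes once cyclin D and cyclin E kinases have inactivated the retinoblastoma family. The G2/M genes are held down in resting cells by the DREAM complex and are later switched on by B-MYB and FOXM1, largely through a short promoter element, the cell cycle genes homology region (CHR), often beside CCAAT boxes bound by NF-Y. In whole liver, fewer cells of a type and less RNA per cell cannot be told apart.

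The promoters of the set show how the S phase and G2/M classes differ in sequence. RefSeq promoter windows (GRCm38.p6, from 250 bases before to 50 after the start of the gene) were found for 32 of the 40 genes, 14 of the S phase and 18 of the G2/M class. Below are the 150 bases before the start of 5 G2/M genes whose levels are described later, followed by 2 S phase genes for contrast. Each runs 5′ to 3′ on the gene's own strand. Capitals mark matches on either strand to the CHR, spelled TTTGAA or, with 1 letter changed, TTCGAA, to CCAAT, and to E2F-type sequences. The latter were searched as TTCCCGC and its relatives TTGGCGC and then TTCGCGC and then TTGCCGC, and matches of different kinds may overlap.
Kif11, chr19:37376232-37376381, plus strand: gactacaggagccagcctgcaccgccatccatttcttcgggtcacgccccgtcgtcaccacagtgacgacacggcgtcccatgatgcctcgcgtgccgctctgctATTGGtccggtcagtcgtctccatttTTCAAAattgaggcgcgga
Cdk1, chr10:69352913-69353062, minus strand: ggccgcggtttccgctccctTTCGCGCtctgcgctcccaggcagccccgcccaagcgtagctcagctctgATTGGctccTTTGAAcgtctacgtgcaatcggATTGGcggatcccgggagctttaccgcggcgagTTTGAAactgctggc
Top2a, chr11:99024190-99024339, minus strand: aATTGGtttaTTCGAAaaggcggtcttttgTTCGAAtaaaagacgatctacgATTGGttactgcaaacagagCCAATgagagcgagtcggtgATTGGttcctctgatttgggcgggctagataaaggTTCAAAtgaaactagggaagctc
Mki67, chr7:135716380-135716529, minus strand: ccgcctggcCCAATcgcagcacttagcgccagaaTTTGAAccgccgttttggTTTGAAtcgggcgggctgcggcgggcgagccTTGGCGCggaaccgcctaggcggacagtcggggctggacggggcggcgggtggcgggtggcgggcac
Ccnb2, chr9:70421555-70421704, minus strand: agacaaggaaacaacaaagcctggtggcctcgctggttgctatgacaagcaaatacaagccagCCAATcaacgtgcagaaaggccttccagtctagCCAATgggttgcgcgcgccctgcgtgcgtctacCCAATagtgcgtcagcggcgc
Mcm6, chr1:128359706-128359855, minus strand: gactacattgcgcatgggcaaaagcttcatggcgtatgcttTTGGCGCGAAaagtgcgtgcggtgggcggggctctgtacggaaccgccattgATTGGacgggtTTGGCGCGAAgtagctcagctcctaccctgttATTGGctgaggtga
Rrm1, chr7:102441545-102441694, plus strand: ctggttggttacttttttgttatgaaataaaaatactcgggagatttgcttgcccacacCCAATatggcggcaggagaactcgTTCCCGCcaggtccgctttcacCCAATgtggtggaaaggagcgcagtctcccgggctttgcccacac
In Kif11 the CHR and the CCAAT match (read as ATTGG on this strand) lie close together just before the start, and Cdk1 repeats both. In Ccnb2 the stretch holds 3 CCAAT boxes, and its CHR matches lie elsewhere in the window. Mcm6 and Rrm1 hold CCAAT boxes and E2F-type matches but no CHR in these stretches.

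Over the whole windows, a CHR of either spelling was found in 14 of 18 G2/M genes (77.8%), in 2 of 14 S phase genes (14.3%) and in 19.4% of 27025 genes with 1 window each. A CCAAT box was found in 16 of 18 G2/M genes (88.9%) and 8 of 14 S phase genes (57.1%), against 37.9% of all genes. The E2F-type sequences went the other way, with 3 of 18 G2/M genes (16.7%), 8 of 14 S phase genes (57.1%) and 9.69% of all genes. CHR and CCAAT together were present in 14 of 18 G2/M genes, 2 of 14 S phase genes and 7.7% of all genes. These matches describe letters in a window and are neither binding sites nor a cause of any level.

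**Figure D1:**
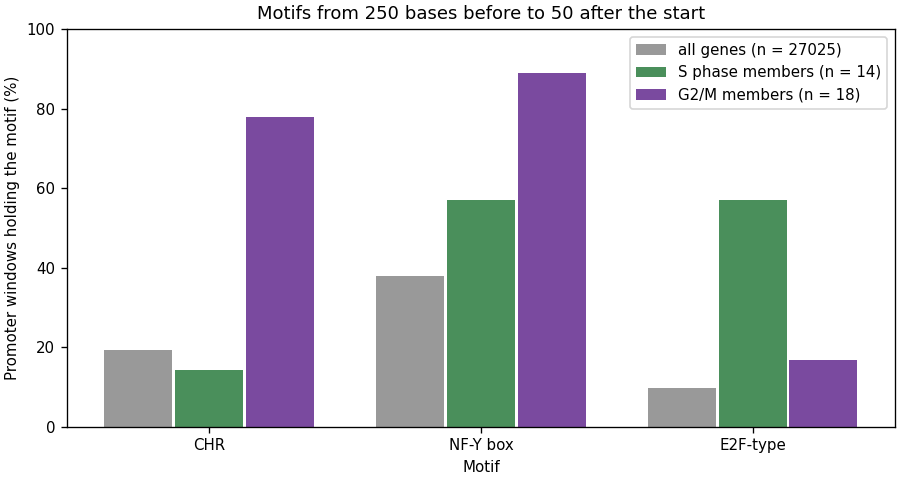
Share of promoter windows (y axis, percent) that hold a CHR of either spelling, a CCAAT box (marked NF-Y box) or an E2F-type sequence, for all genes with 1 window each (grey), S phase genes (green) and G2/M genes (purple). CHR stands at 77.8% of the G2/M windows against 14.3% of the S phase windows, and the E2F-type sequences at 16.7% against 57.1%.

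Total counts ran from 17508221 to 24916239 per library. All levels below are CPM, meaning counts brought to a common library total with TMM factors, unless RPKM is named. Het-labelled libraries 1 and 3 had the largest totals (24916239 and 24645260) and the lowest TMM factors (0.871 and 0.852). Het-labelled library 2 had the smallest total (17508221), with a TMM factor of 1.06. The part of depth in the differences between these libraries was not tested. Midn, which checks the labels, had 68.7, 39.8, 71.5, 41.7 and 29.3 CPM in wild-type libraries 1 to 5 and 60.4, 39.1 and 51.7 CPM in het-labelled libraries 1 to 3, so its level did not separate the genotypes. Which part of Midn is missing is not stated in the labels, and directions below are those of the labels. Rpph1, the RNA of ribonuclease P, took 0.673 to 1.06% of the counts in wild-type libraries 2, 4 and 5. In the other 5 libraries it took 0.229 to 0.399%. For some genes the fold change is therefore also given against each of these wild-type sets. Values given once are over all livers and can differ between the sets. Against wild-type libraries 1 and 3, the log2 fold change was −0.98 for Foxm1 and −0.84 for Plk1. Against wild-type libraries 2, 4 and 5 it was 0.08 and 0.36. Hepatocyte markers were abundant in every library, with a summed level of 35210 to 69850 CPM.

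**Figure D2:**
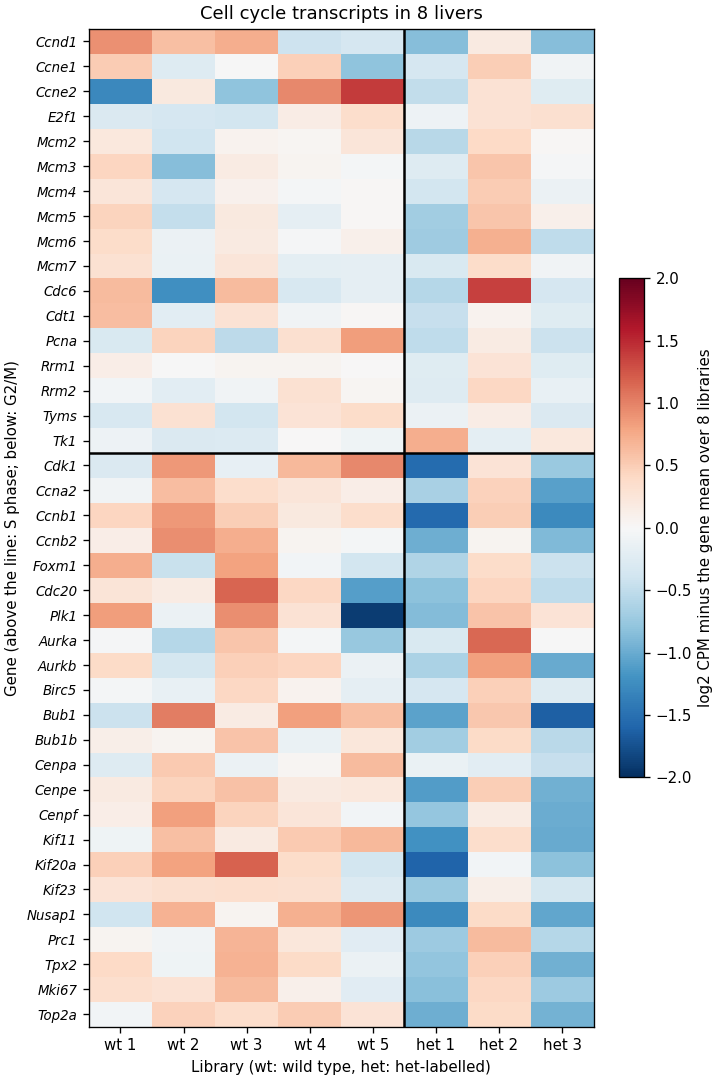
Level of each of the 40 genes in each of the 8 libraries, as log2 CPM minus the gene's mean over the 8 libraries (red above, blue below the mean). Rows are genes, with the 17 S phase genes above the horizontal line and the 23 G2/M genes below it, and columns are libraries; het-labelled libraries 1 and 3 are blue for most G2/M genes, and het-labelled library 2 is not.

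S phase genes lay on both sides of 0 between the genotype labels. Their log2 fold changes, het-labelled minus wild type, ran from −0.82 for Ccnd1 to 0.44 for Tk1, with 9 below and 8 above 0. Their median was −0.0044, and that of all 14438 genes was 0.0044. In edgeR's quasi-likelihood test 0 of 17 passed an adjusted p of 0.05, as did 0% of all genes, and the smallest adjusted p was 0.322. At an unadjusted edgeR p under 0.05, 0 of 17 were lower and 0 of 17 higher, where 5.43% of all genes were lower and 10.3% higher. In DESeq2, which called 1.22% of the 14406 genes it gave an adjusted p, at 0.05, 0 of the 40 cell cycle genes passed.

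Among the 4 genes of G1/S control, Ccnd1 had the highest level per length, at a mean of 33.98 RPKM in wild type by the authors' values, while Ccne1, Ccne2 and E2f1 stood at 1.10, 3.51 and 1.99 RPKM. Ccnd1 (chromosome 7, 144929931 to 144939925, minus strand, mm10) encodes cyclin D1, which starts the exit from rest. It stood at 188, 151, 164, 74.6 and 78.2 CPM in wild-type libraries 1 to 5 and at 55.1, 113 and 55.1 CPM in het-labelled libraries 1 to 3. Het-labelled libraries 1 and 3 lay below every wild-type library and het-labelled library 2 lay among them. This is a log2 fold change of −0.82 (SE 0.39, 95% interval −1.70 to 0.06; edgeR adjusted p = 0.337). It was −1.30 (edgeR adjusted p = 0.0837) against wild-type libraries 1 and 3 alone and −0.49 (edgeR adjusted p = 0.377) against wild-type libraries 2, 4 and 5 alone.

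Ccne2, a cyclin E that drives entry into S phase, varied most of the S phase genes within wild type, over a 6.42-fold range from 3.55 CPM in library 1 to 22.8 CPM in library 5. Its het-labelled libraries lay inside that range at 6.13, 10.55 and 7.29 CPM. Ccne1, the other cyclin E, gave a log2 fold change of 0.01. E2f1, an activating E2F factor, gave 0.25 (SE 0.22; edgeR adjusted p = 0.562). None of these 3 separated the groups.

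The 8 licensing genes load the MCM helicase onto replication origins: Mcm2 to Mcm7 encode the helicase ring, and Cdc6 and Cdt1 the loaders. Their log2 fold changes ran from −0.35 for Cdt1 to 0.35 for Cdc6, 4 below and 4 above 0. Mcm2 stood at 12.8, 8.40, 11.6, 11.4 and 13.1 CPM in wild type and at 7.56, 14.6 and 11.3 CPM in the het-labelled libraries. The het-labelled libraries thus held both the lowest and the highest Mcm2 level of the 8, and the mean levels were 11.5 ± 1.87 CPM (SD, n = 5) and 11.1 ± 3.52 CPM (SD, n = 3). Het-labelled library 2 was the highest of the 8 for 7 of the 8 licensing genes, where 4.35% of all genes were highest in that library. Het-labelled library 1 was the lowest for 6, where 11.6% of all genes were. Cdt1 stood at 3.81 to 6.71 CPM in wild type and at 3.18, 4.63 and 3.72 CPM in het-labelled libraries 1 to 3, and Cdc6 at 0.670 to 2.44 CPM and at 1.06, 4.04 and 1.24 CPM. Mcm3 and Mcm4 gave 0.13 and 0.05, and both were below 0 when libraries were scaled by size alone (−0.046 and −0.11). Mcm6 stood at 19.6 to 27.4 CPM in wild type and at 13.04, 34.9 and 15.01 CPM in het-labelled libraries 1 to 3.

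The 5 DNA synthesis genes supply nucleotides (Rrm1, Rrm2, Tyms, Tk1) and the sliding clamp of the polymerase (Pcna). Rrm1, a subunit of ribonucleotide reductase, was the steadiest of the 40 genes in wild type, at 23.03 to 25.4 CPM, and stood at 19.6, 28.1 and 19.6 CPM in the het-labelled libraries. Rrm2, the other subunit, gave a log2 value of 0.03, and Tyms, thymidylate synthase, −0.16. Pcna had the highest level per length of the 40 genes, at a mean of 38.9 RPKM in wild type. It stood at 34.6, 57.7, 29.7, 53.3 and 75.9 CPM in wild-type libraries 1 to 5 and at 30.05, 47.8 and 31.45 CPM in the het-labelled libraries. The wild-type libraries with a high Rpph1 share were those with a high Pcna level. The log2 fold change of −0.46 (SE 0.32; edgeR adjusted p = 0.469) was −0.82 (edgeR adjusted p = 0.0414) against wild-type libraries 2, 4 and 5 and 0.12 (edgeR adjusted p = 0.746) against wild-type libraries 1 and 3. Against wild-type libraries 1 and 3 the values of Ccne2 (0.85) and Tyms (0.21), which were below 0 over all 8 livers, also lay above 0.

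Tk1, a thymidine kinase of the salvage route, had the highest log2 fold change of the S phase genes. It stood at 13.8 to 17.02 CPM in wild type and at 27.9, 14.8 and 19.6 CPM in het-labelled libraries 1 to 3. Libraries 1 and 3, which were low for most G2/M genes, were above every wild-type library here. On the log2 scale the difference was 0.44 (SE 0.20, 95% interval −0.01 to 0.89; edgeR adjusted p = 0.322). Exons of Tk1 overlap those of Afmid on the opposite strand over 83 of 1440 bases in GENCODE M21. The mean of Afmid was 62.7 ± 9.34 CPM over 5 wild-type livers and 94.3 ± 37.9 CPM over 3 het-labelled ones (SD). How counting used strand is not stated in the sources at hand, so reads from the shared bases cannot be told apart.

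**Figure D3:**
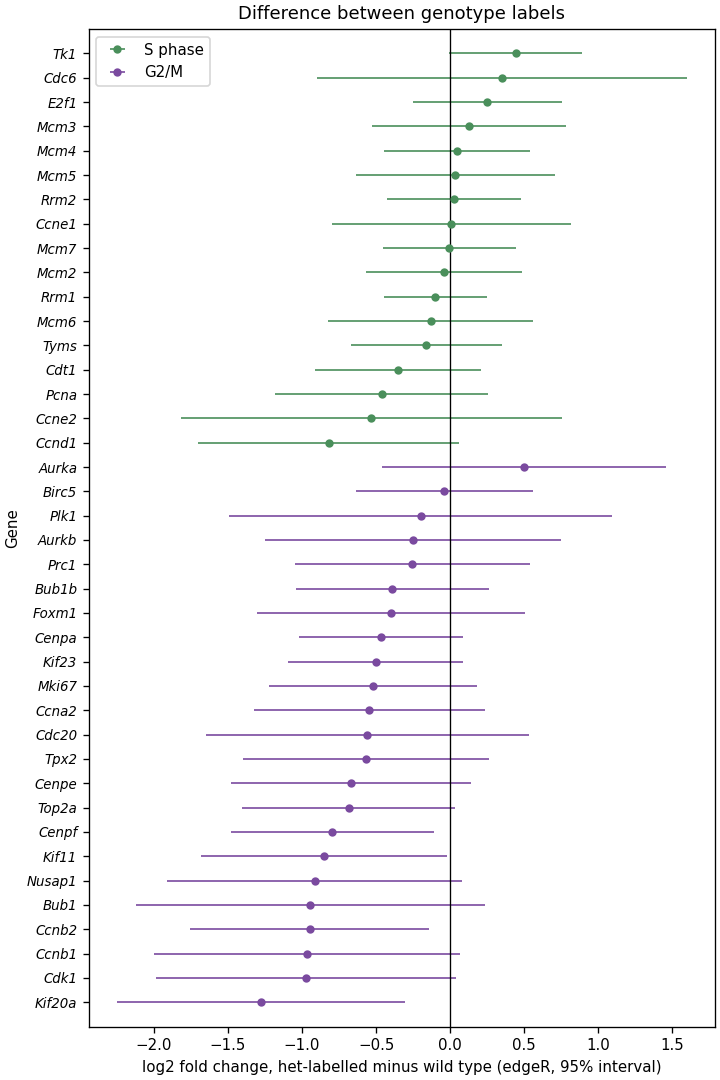
Log2 fold change of each gene, het-labelled minus wild type, from edgeR (points, x axis) with its 95% interval (bars), for S phase genes (green) and G2/M genes (purple), each class sorted by value. S phase genes lie on both sides of 0, while 22 of 23 G2/M genes lie below 0 and the intervals of 4 of them end below 0.

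G2/M genes stood lower in the het-labelled livers for 22 of 23 members, against 49.6% of all genes tested with a log2 fold change below 0. Their median was −0.56, and that of all genes 0.0044. At an unadjusted edgeR p under 0.05, 4 of 23 were lower (Kif20a, Ccnb2, Cenpf and Kif11), where 5.43% of all genes were, and 0 were higher, where 10.3% of all genes were. None passed after adjustment over all genes (smallest edgeR adjusted p = 0.268). In DESeq2, 9 of 23 were lower at an unadjusted p under 0.05, where 7.17% of the 19158 genes with a DESeq2 p-value were. Of the 14438 genes tested in edgeR, 1270 were lower in DESeq2 at that level. The groups did not part for any member: 0 of 40 genes had every het-labelled library below every wild-type library (2.32% of all genes did) and 0 of 40 had them all above (7.54% of all genes did). The members were measured in the same livers, so their number adds no replicates.

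Cyclins, Cdk1 and their transcription come first in the order of mitosis. Cdk1 (chromosome 10, 69335146 to 69352912, minus strand) encodes the kinase that starts mitosis. It stood at 7.68, 17.2, 8.37, 14.7 and 18.4 CPM in wild-type libraries 1 to 5 and at 3.23, 11.4 and 5.62 CPM in het-labelled libraries 1 to 3. Het-labelled libraries 1 and 3 lay below all 5 wild-type libraries and library 2 inside their range. In edgeR the fold change came to −0.97 on the log2 scale (SE 0.45; edgeR adjusted p = 0.328). Against wild-type libraries 1 and 3 alone it was −0.31, and against wild-type libraries 2, 4 and 5 alone −1.36 (edgeR adjusted p = 0.694 and 0.0553).

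Ccnb1, cyclin B1 and the main partner of Cdk1, stood at 4.04, 5.46, 4.22, 3.40 and 3.79 CPM in wild type and at 1.01, 4.20 and 1.24 CPM in the het-labelled libraries. The wild-type livers lay close together, and het-labelled libraries 1 and 3 lay well under them. In raw counts these were 62 to 113 in wild type and 22, 78 and 26 in the het-labelled libraries. Het-labelled minus wild type gave a log2 value of −0.97 (SE 0.46; edgeR adjusted p = 0.336). Ccnb2, cyclin B2, had 3.20, 5.56, 4.82, 3.02 and 2.83 CPM in wild type and 1.48, 3.01 and 1.57 CPM in the het-labelled libraries, a log2 fold change of −0.95 (SE 0.36; edgeR adjusted p = 0.278). Ccna2, cyclin A2, which serves S phase and G2, gave −0.55. Foxm1, the factor that switches on many of these genes, gave −0.40, and Cdc20, which activates the complex that ends metaphase, gave −0.56. All 6 genes of the group had a log2 fold change below 0, and their summed level was 26.4 to 40.5 CPM in wild type against 11.8, 31.9 and 14.2 CPM in the het-labelled libraries.

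The 6 mitotic kinase and checkpoint genes were the least alike. Bub1, a checkpoint kinase at kinetochores, stood at 2.09, 5.72, 3.18, 4.997 and 4.28 CPM in wild type and at 1.34, 4.09 and 0.905 CPM in the het-labelled libraries (log2 fold change −0.94, SE 0.52; edgeR adjusted p = 0.387). Bub1b, its partner BubR1, gave −0.39, Aurkb, the kinase of the chromosomal passenger complex, −0.25, Plk1, which acts at spindle poles and kinetochores, −0.20, and Birc5, or survivin, −0.04. Aurka, a kinase of the spindle poles, was the 1 G2/M gene above 0, at 0.50 (SE 0.42; edgeR adjusted p = 0.544). It stood at 0.903 to 2.24 CPM in wild type and at 1.24, 3.39 and 1.53 CPM in het-labelled libraries 1 to 3. Its value above 0 came from het-labelled library 2, without which the log2 fold change was −0.05.

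The 3 centromere genes are Cenpa, the histone H3 variant that marks centromeres, Cenpe, a kinetochore motor, and Cenpf, a kinetochore protein of G2. Cenpf (chromosome 1, 189640614 to 189688086, minus strand) stood at 9.86, 15.8, 12.3, 10.6 and 8.67 CPM in wild type and at 5.25, 10.01 and 4.53 CPM in the het-labelled libraries. This is a log2 fold change of −0.80 (SE 0.30, 95% interval −1.48 to −0.11; edgeR adjusted p = 0.279). Cenpe gave −0.67, with het-labelled libraries 1 and 3 at 3.18 and 3.53 CPM against 7.77 to 10.3 CPM in wild type and 9.69 CPM in het-labelled library 2. Cenpa differed from both in that het-labelled library 2, at 6.13 CPM, was not above library 1, at 6.50 CPM. Its log2 fold change of −0.47 was −0.73 (edgeR adjusted p = 0.0462) against wild-type libraries 2, 4 and 5 and −0.14 (edgeR adjusted p = 0.647) against wild-type libraries 1 and 3.

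All 6 spindle and cytokinesis genes had a log2 fold change below 0, with a median of −0.71. Kif20a, a kinesin of the central spindle, had the lowest value of the 40 genes. It stood at 4.66, 5.87, 7.58, 4.34 and 2.59 CPM in wild-type libraries 1 to 5 and at 1.11, 3.23 and 1.91 CPM in het-labelled libraries 1 to 3. Het-labelled library 2 was above wild-type library 5, so the groups overlapped. On the log2 scale the difference was −1.28 (SE 0.43, 95% interval −2.25 to −0.30; edgeR adjusted p = 0.268). Exons of Kif20a overlap those of Cdc23 on the opposite strand over 1271 of 3999 bases, and Cdc23, a subunit of the anaphase-promoting complex, gave −0.13 (SE 0.13; edgeR adjusted p = 0.623).

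Kif11 (chromosome 19, 37376382 to 37421863, plus strand) encodes the kinesin that pushes spindle poles apart. It stood at 8.04, 13.03, 9.71, 12.3 and 13.4 CPM in wild type and at 3.69, 10.9 and 4.24 CPM in the het-labelled libraries. Means were 11.3 ± 2.32 CPM (SD, n = 5) and 6.27 ± 3.997 CPM (SD, n = 3), a log2 difference of −0.85 (SE 0.37), for which the edgeR adjusted p was 0.310 in the fit across all genes. Nusap1, which bundles spindle microtubules, gave −0.91, Tpx2, which seeds them and activates Aurora A, −0.57, Kif23, a kinesin of the midzone, −0.50, and Prc1, which cross-links midzone microtubules, −0.25.

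Mki67 and Top2a are the set's most used marks of dividing cells: Ki-67 coats mitotic chromosomes and topoisomerase II alpha untangles them. Mki67 (chromosome 7, 135689788 to 135716379, minus strand) stood at 40.6, 39.0, 49.4, 34.5 and 27.5 CPM in wild type and at 17.97, 42.8 and 19.35 CPM in the het-labelled libraries. Top2a (chromosome 11, 98992947 to 99024189, minus strand) stood at 21.7, 31.2, 28.8, 32.1 and 27.4 CPM in wild type and at 11.5, 29.4 and 11.8 CPM in the het-labelled libraries. For each gene het-labelled libraries 1 and 3 lay close together, below every wild-type library, and they differed by more than the wild-type spread from het-labelled library 2. Over all 8 livers the log2 values were −0.52 (SE 0.31; edgeR adjusted p = 0.416) for Mki67 and −0.68 (SE 0.32; edgeR adjusted p = 0.332) for Top2a.

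**Figure D4:**
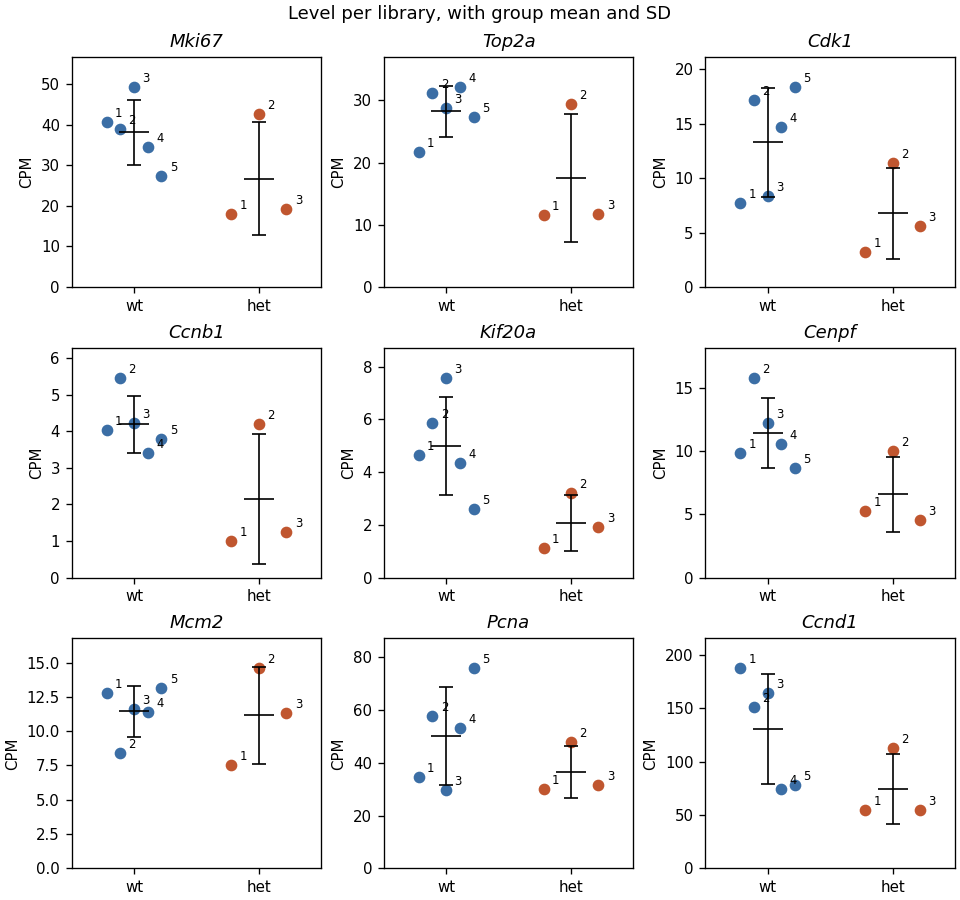
CPM of 9 genes in every library (points, numbered by replicate; wild type blue, het-labelled orange), with the group mean and SD (black; n = 5 and n = 3). In the 6 G2/M genes of the upper rows het-labelled libraries 1 and 3 lie below all wild-type points and het-labelled library 2 lies within their range, while Mcm2 and Pcna overlap more.

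The het-labelled livers were thus not alike. Het-labelled library 1 was the lowest of the 8 libraries for 22 of the 40 genes (8 S phase and 14 G2/M), against 11.6% of all genes tested. Library 3 was the lowest for 7 (1 S phase and 6 G2/M), against 11.4% of all genes, and library 2 for 0, against 4.74%. Below all 5 wild-type libraries stood 19 of 23 G2/M genes in het-labelled library 1 and 19 of 23 in library 3, against 18.2 and 19.0% of all genes. Of the S phase genes, 9 of 17 (52.9%) stood there in library 1 and 4 of 17 (23.5%) in library 3. Both libraries were below all wild-type libraries for 18 of 23 G2/M genes (78.3%), 4 of 17 S phase genes (23.5%) and 13.3% of all genes. Het-labelled library 2 had 20 of 23 G2/M genes inside the wild-type range and 3 above it, and 9 of 17 S phase genes above it. Of all genes, 79.9% lay inside the range in that library and 12.4% above it.

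The number of G2/M genes past the unadjusted level depended on which libraries were compared. Without het-labelled library 2 the median of the G2/M genes was −1.12 and 17 of 23 were lower at an unadjusted edgeR p under 0.05, where 11.1% of all genes were. None of the 23 passed after adjustment (smallest edgeR adjusted p = 0.0755). Without het-labelled library 1 or 3, 0 of 23 were lower at that level, where 1.5 and 1.67% of all genes were, with medians of −0.39 and −0.42. Among the wild-type libraries, leaving out library 1 gave 8 of 23, where 6.33% of all genes were lower, and library 2 gave 1 of 23, where 3.5% were. Each S phase median without 1 library lay between −0.27 and 0.16. Against wild-type libraries 1 and 3 alone, 3 of 23 G2/M and 2 of 17 S phase genes were lower at an unadjusted edgeR p under 0.05, where 14.9% of all genes were. Against wild-type libraries 2, 4 and 5 alone these were 8 of 23 and 3 of 17, where 18.7% of all genes were. There 1 of 23 (Cenpa) and 1 of 17 (Pcna) were lower at an adjusted p under 0.05, where 10.5% of all genes were. The G2/M medians were −0.62 and −0.66 in these fits.

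Set against licensing and DNA synthesis transcripts in the same library, G2/M transcripts were also fewer in het-labelled libraries 1 and 3. For each 100 counts of the 13 licensing and DNA synthesis genes, the 23 G2/M genes had 77.7, 109, 110.2, 90.2 and 73.7 counts in wild-type libraries 1 to 5. Het-labelled libraries 1 to 3 had 50.8, 78.6 and 51.5. This ratio does not depend on how libraries are scaled. Libraries 1 and 3 lay below every wild-type library and library 2 inside their range, with means of 92.1 ± 17.1 (SD, n = 5) and 60.3 ± 15.9 (SD, n = 3). Without Mki67 and Top2a, which give many of the counts, the ratios were 47.7 to 71.8 in wild type and 32.4, 49.2 and 33.1 in the het-labelled libraries. Per 100 counts of Mcm2 to Mcm7 alone, all 23 genes had 154 to 307 counts in wild type and 136, 160.0 and 115 in the het-labelled libraries. The 13 genes leave out those of G1/S control, among them Ccnd1. With all 17 S phase genes, wild-type library 1 had 3637 G2/M counts beside 9178 S phase counts. Het-labelled libraries 1 and 3 had 1766 beside 4974 and 1831 beside 5080, so their gap to wild-type library 1 was narrower. The summed level of the 13 S phase genes was 187 to 231 CPM in wild type and 160, 246 and 169 CPM in the het-labelled libraries, and that of the G2/M genes 162 to 206 CPM and 81.4, 193 and 87.3 CPM.

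Het-labelled libraries 1 and 3 also had the lowest summed levels of bile duct, macrophage and stellate cell markers. The summed level of 8 bile duct markers, led by Spp1, an osteopontin gene that macrophages also express, was 407 to 897 CPM in wild type and 147, 745 and 159 CPM in het-labelled libraries 1 to 3, and 7 of the 7 tested had a log2 fold change below 0. That of 9 macrophage markers was 785 to 1764 CPM in wild type and 580, 1142 and 626 CPM in the het-labelled libraries, with 9 of 9 below 0. Lyz2, a lysozyme of macrophages, alone went from 329 to 955 CPM in wild type and had 152, 494 and 169 CPM in the het-labelled libraries. The 8 stellate cell and myofibroblast markers summed to 1048 to 1843 CPM in wild type and 881, 1555 and 629 CPM in the het-labelled libraries, with 6 of 8 below 0 and 2 above. Het-labelled library 1 was the lowest of the 8 libraries for 0 of these 8 markers and library 3 for 5, against 11.6 and 11.4% of all genes. With each stellate marker centred on its mean log2 level, the average was −0.28 in het-labelled library 1, above −0.34 in wild-type library 5. Within wild type, libraries 3 and 2 had nearly equal G2/M sums, the highest of the group (205.8 and 205.4 CPM). Their macrophage sums were 785 CPM, the lowest in wild type, and 1486 CPM. Wild-type library 3 had the highest bile duct and stellate cell sums of the wild-type libraries (897 and 1843 CPM), and wild-type library 2 had 846 and 1274 CPM.

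Lymphocyte markers were scarce. The 9 T and NK cell markers summed to 6.43 to 23.9 CPM in wild type. Their sums of 7.79, 11.8 and 6.77 CPM in the het-labelled libraries lay inside that range. Of these markers, 8 of the 8 tested had a log2 fold change below 0, with a median of −0.85. The 6 B and plasma cell markers summed to 6.93 to 14.5 CPM in wild type and 5.95, 8.45 and 8.39 CPM in the het-labelled libraries. All 6 were below 0, with a median of −0.59. Hepatocyte markers went the other way, with 35210 to 41480 CPM in wild type and 69850, 40040 and 60590 CPM in het-labelled libraries 1 to 3. Endothelial markers were at 301 to 375 CPM in wild type and 459, 329 and 464 CPM in the het-labelled libraries. The part of these cell types in the G2/M result was not tested. Neutrophil markers summed to 6.39 to 51.5 CPM in wild type and 12.2, 23.03 and 7.39 CPM in the het-labelled libraries. Of 6 red cell markers, Hbb-bs, Hbb-bt, Hba-a1 and Hba-a2 were at 0 counts in every library. Why they were at 0 was not tested, and the zeros are not read as an absence of red cells. The list summed to 29.6 to 54.9 CPM in wild type and 95.03, 57.3 and 78.7 CPM in het-labelled libraries 1 to 3, every one above every wild-type library. Nearly all of this was Alas2, an enzyme of heme synthesis and the 1 member tested (log2 fold change 0.88, SE 0.22; edgeR adjusted p = 0.259).

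**Figure D5:**
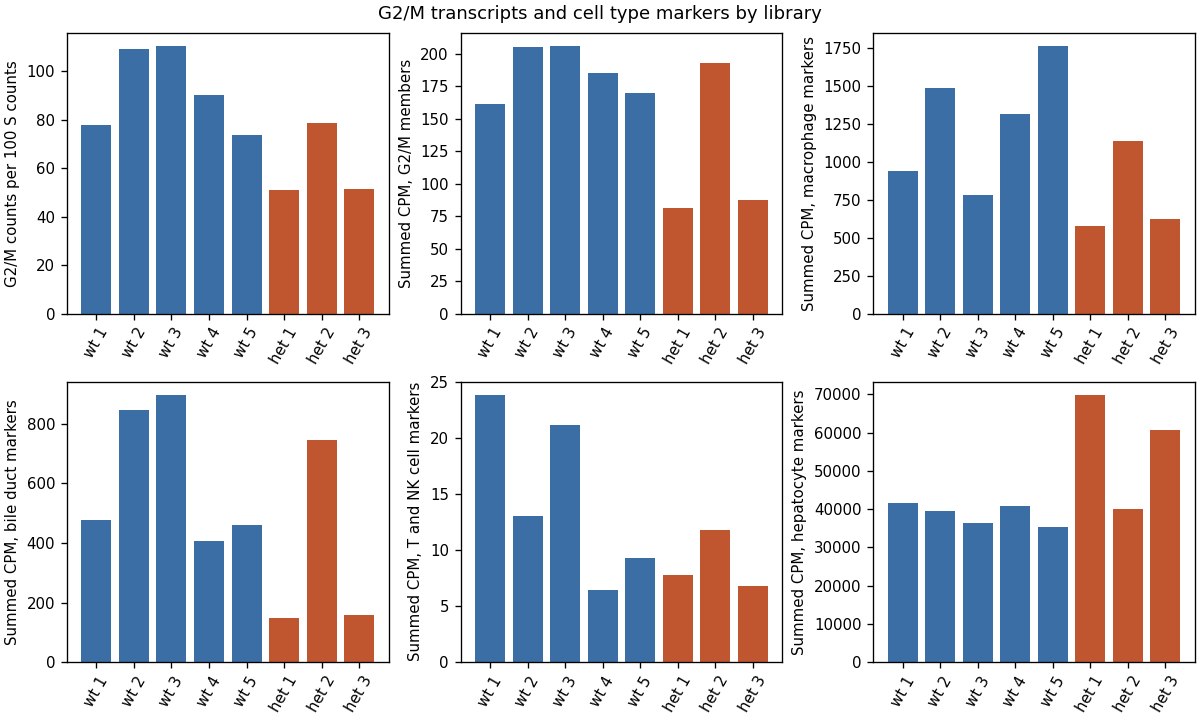
Per library (wild type blue, het-labelled orange; bars start at 0): G2/M counts per 100 counts of licensing and DNA synthesis genes, and the summed CPM of the 23 G2/M genes and of macrophage, bile duct, T and NK cell, and hepatocyte markers. Het-labelled libraries 1 and 3 are the lowest for the G2/M, macrophage and bile duct panels and the highest for hepatocyte markers, and het-labelled library 2 lies within the wild-type range in all 6 panels.

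Other mitosis genes were also lowest in het-labelled libraries 1 and 3. The 55 further genes of kinetochores, spindle, condensin and cytokinesis summed to 283, 383, 312, 367 and 359 CPM in wild-type libraries 1 to 5 and to 193, 360 and 234 CPM in the het-labelled libraries. Of the 55, 48 had a log2 fold change below 0, with a median of −0.52. At an unadjusted edgeR p under 0.05, 5 were lower and 0 higher, where 5.43 and 10.3% of all genes were. They were Kif2c, a kinesin that takes microtubules apart, Knl1 and Ndc80, which bind microtubules at the kinetochore, Hmmr, a spindle protein, and Smc4, a condensin subunit. Kif2c stood at 1.33 to 1.98 CPM in wild type and at 0.599, 1.24 and 1.05 CPM in the het-labelled libraries, the only one of the 55 in which the groups did not overlap, where 2.32% of all genes had every het-labelled library below (log2 fold change −0.84, SE 0.32; edgeR adjusted p = 0.279). Knl1 gave −0.97 and Ndc80 −0.89. Hmmr and Smc4, named after their values were seen, gave −1.25 and −0.46.

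Of 35 further replication genes, 22 had a log2 fold change below 0, with a median of −0.14, and at an unadjusted edgeR p under 0.05 1 was higher and 0 were lower, where 10.3 and 5.43% of all genes were. The higher gene was Mcm10, which helps to fire origins. It stood at 30.5, 19.9, 25.2, 33.3 and 26.9 CPM in wild type and at 66.0, 41.0 and 43.98 CPM in the het-labelled libraries, every one above every wild-type liver, as in 7.54% of all genes. In edgeR the fold change came to 0.89 on the log2 scale (SE 0.21; edgeR adjusted p = 0.259, DESeq2 adjusted p = 0.04996). Pola1, the catalytic subunit of primase-linked DNA polymerase, gave −0.43, and Gins4, a part of the active helicase, 0.25.

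Among inhibitors of cyclin-dependent kinases, Cdkn2c, or p18-INK4c, which binds CDK4 and CDK6, was lower in every het-labelled liver. It stood at 11.4, 15.9, 13.2, 9.34 and 11.4 CPM in wild type and at 4.01, 8.02 and 4.86 CPM in the het-labelled libraries. Het-labelled minus wild type gave a log2 value of −1.12 (SE 0.27; edgeR adjusted p = 0.259), and DESeq2 gave an adjusted p of 0.0114. Of the 5 inhibitor genes tested, 1 was lower at an unadjusted edgeR p under 0.05 and 0 were higher, where 5.43 and 10.3% of all genes were. The groups did not overlap in Cdkn2c, with the het-labelled livers below, as in 2.32% of all genes. Cdkn1a, or p21, a target of p53, gave 0.43, with 25.6 CPM in het-labelled library 2 against 9.43 to 16.2 CPM in wild type, and −0.06 without that library. Cdkn1b, or p27, gave −0.19. Of 14 genes of p53 and its targets, 2 were lower and 0 higher at that level, against the same shares of all genes. They were Gadd45b (−0.96) and Sesn1 (−0.41), both growth arrest or stress genes. Sesn2, of the same family as Sesn1, gave 0.45.

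Genes of the retinoblastoma, E2F and DREAM machinery lay on both sides of 0: 0 of 18 were lower or higher at an unadjusted edgeR p under 0.05, where 5.43 and 10.3% of all genes were, 7 lay below 0 and 11 above, and their median was 0.06. Lin52, a subunit of the MuvB core of DREAM, gave 0.38, E2f3, an activating E2F, 0.30, and E2f5, a repressive one, −0.58. The groups did not overlap in 1 of the 18, E2f2, another activating E2F, named after its values were seen. It stood at 3.11 to 3.59 CPM in wild type and at 2.12, 3.01 and 2.57 CPM in the het-labelled libraries (log2 fold change −0.41, SE 0.21; edgeR adjusted p = 0.364), and 2.32% of all genes had every het-labelled library below. Of 10 further G1 kinases, cyclins and MYC genes, 2 were higher and 0 lower at that level, where 10.3 and 5.43% of all genes were. Cdk6, a partner of D cyclins, stood at 83.3 to 107 CPM in wild type and at 130.0, 115 and 123 CPM in the het-labelled libraries (log2 fold change 0.33, SE 0.14; edgeR adjusted p = 0.317). Mycn, a transcription factor of the MYC family, stood at 0.567 to 0.879 CPM in wild type and at 1.66, 2.05 and 1.29 CPM in the het-labelled libraries. In neither gene did the groups overlap, and in 7.54% of all genes every het-labelled library stood above. Mycn gave a log2 value of 1.19 (SE 0.29; edgeR adjusted p = 0.259), and Myc itself gave −0.83 (SE 0.46; edgeR adjusted p = 0.392).

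Another list held 15 tested genes linked to the control of hepatocyte growth, some acting for it and some against it. At an unadjusted edgeR p under 0.05, 4 were higher and 1 lower, where 10.3 and 5.43% of all genes were. The median of the 15 was 0.21, and whether growth signalling differed was not tested. Hbegf, a ligand of the EGF receptor, stood at 2.04, 3.14, 3.85, 1.81 and 2.29 CPM in wild type and at 0.830, 1.24 and 1.33 CPM in the het-labelled libraries. That is −1.21 on the log2 scale (SE 0.35; edgeR adjusted p = 0.259). The higher ones were Lgr5 (0.85), a receptor for R-spondins, Il6ra (0.86), a receptor subunit for interleukin 6, and, named after their values were seen, Axin2 (0.75), a Wnt target, and Yap1 (0.50), the effector of the Hippo pathway. In Hbegf all het-labelled livers lay below, and in Lgr5 and Yap1 all lay above, every wild-type liver, as did 2.32 and 7.54% of all genes.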

How the data were processed

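RNA of 8 livers was sequenced after KAPA mRNA HyperPrep library preparation, per the labels' protocols. Per the submitters' processing notes, the tools were HTSeq, STAR and bcl2fastq 2.18.0.12, on the mouse build mm10; which annotation, strand setting and versions of STAR and HTSeq applied was not given in the sources used here. The authors deposited raw counts per gene and RPKM values (counts per exon length and per library total, of which the definition is unknown here). No sample column was left unused (0). Gene positions are those deposited with the counts.

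Groups came from the genotype label. Replicates were numbered in accession order and pair nothing. Litters and batches are not described, and p-values therefore reflect only the spread between these samples, which may be technical in part. Chi-square per degree of freedom between replicate libraries was at least 22.9 in wild type and 36.0 among het-labelled ones (over genes whose summed count reached 20), so each library counted as 1. Genes were kept with filterByExpr (minimum count 10, minimum total 15), scaled by TMM (factors 0.852 to 1.27) and compared by the quasi-likelihood test of edgeR, robust and two-sided, with Benjamini-Hochberg adjustment over 14438 genes at 0.05. A fold change is on the log2 scale and intervals are at 95%. Alternatives were DESeq2, limma-voom, limma on log2(RPKM + 0.1) and log2(RPKM + 1), no filter, scaling by RLE or by library size alone, each library left out, and parts of the wild-type group.

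The 40 genes, the pathway and marker lists and the tests were chosen with earlier results of these data known, so a list is described by counts and its median and has no test. Genes given in full are Midn, in each class the 5 with the smallest edgeR p in each direction, Mki67, Top2a, Cdk1, Ccnb1, Ccnd1, Pcna and Mcm2, and up to 3 with the smallest p of each pathway list. Promoter windows come from RefSeq on GRCm38.p6, and motifs were searched as exact letters on both strands, in 1 window a gene. Exon overlaps come from GENCODE M21, where 11 of the 40 genes shared exon bases with another gene, 10 of them with a gene of the count table. The marker Trbc2 was not analysed here. Software comprised edgeR 4.0.16, DESeq2 1.42.0 and limma 3.58.1 under R 4.3.3, with figures from matplotlib 3.10.9 and Python 3.11.15.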

Additional observations from a re-analysis of the deposited data

Results flagged for a closer look

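Among the values of named and member genes in wild type, checked for a library far from the other 4, 61 groups were examined and 1 stood out. Kif23 in wild-type library 5 had 3.01 CPM, and the nearest other wild-type library had 4.40 CPM, a gap of 0.874 of the whole range against a critical value of 0.71. Chance flags about 1 in 20 such groups.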

How the results depend on the processing

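The depth of 17508221 to 24916239 counts gave 6 to 69 counts for Plk1 in wild-type libraries, so small differences in the scarcest genes were not detectable. Over 42 named genes and 17 alternatives, 677 of 714 values kept their direction and their side of the threshold, 7 passed only in the alternative and 30 turned direction; the cause was not tested.

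For genes at an adjusted p under 0.05, DESeq2 gave 176, wild-type libraries 1 and 3 alone 21 and wild-type libraries 2, 4 and 5 alone 2632, against 0 in edgeR over all 8 libraries. At an unadjusted p under 0.05 edgeR gave 1487 higher and 784 lower genes, the partial wild-type groups 4630 and 5228 in all, and leaving out 1 library 794 to 3602; the adjusted count then stayed 0. The S phase median was −0.19 with library size alone, −0.20 against wild-type libraries 1 and 3, and −0.27 to 0.16 with 1 library left out. S phase genes lower at an unadjusted p numbered 1 in DESeq2, 2 and 3 in the partial wild-type groups and 0 to 2 with 1 library left out; higher ones numbered 1 with no filter and against wild-type libraries 1 and 3, and 0 to 1 with 1 library left out. G2/M genes lower at an unadjusted p numbered 9 in DESeq2, 9 in limma-voom, 10 and 8 on log2 RPKM with pseudocounts of 0.1 and 1, 8 against wild-type libraries 2, 4 and 5, and 0 to 17 with 1 library left out, where their median was −1.12 to −0.39. Against wild-type libraries 2, 4 and 5, 1 S phase and 1 G2/M gene passed after adjustment.

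The log2 fold change turned sign for Midn (−0.041 with RLE scaling, −0.26 with library size alone, −0.032 in DESeq2, −0.54 against wild-type libraries 1 and 3), Mcm3 (−0.046 with library size alone) and Mcm4 (−0.11 with library size alone, −0.0002 in limma-voom, −0.017 and −0.01 on log2 RPKM with pseudocounts of 0.1 and 1). Against wild-type libraries 1 and 3 it was −0.27 for Cdc6, −0.22 for Mcm3, −0.17 for Mcm4, 0.12 for Pcna, 0.85 for Ccne2, 0.21 for Tyms and −0.032 for Sesn2. With 1 library left out the range was −0.14 to 0.17 for Midn, −0.51 to 0.68 for Cdc6, −0.14 to 0.30 for Mcm3, −0.24 to 0.22 for Mcm4, −0.27 to 0.18 for Mcm2, −0.053 to 0.77 for Aurka and −0.064 to 0.68 for Cdkn1a; the turned values came without het-labelled library 2 for Cdc6, Aurka and Cdkn1a, without that library or wild-type library 2 for Mcm3 and Mcm4, without wild-type library 5 or het-labelled library 1 for Mcm2, and without any of 5 libraries for Midn. No paired analysis was possible because replicate numbers were given in accession order and pair no livers.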
